A study of Mus musculus with 13 samples.

Results

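The nuclear genes for the subunits of the mitochondrial respiratory chain and of ATP synthase were followed in mouse embryonic stem (ES) cells in which CTCF S224E was switched on with doxycycline (dox). CTCF is a zinc finger protein that binds DNA at chromatin loop anchors, and S224E replaces a serine with glutamate to mimic phosphorylation. The genes were taken by symbol: Nduf followed by a, b, c, s or v and a number, Sdha to Sdhd, all symbols that begin with Uqcr or Atp5, and the Cox subunit genes made in most tissues. This gave 75 of the 24421 genes that both count tables hold, of which 36 are named for complex I, 4 for complex II, 8 for complex III, 10 for complex IV and 17 for complex V. All 75 had at least 1 count in at least 1 library, as had 20044 genes in all. A mean of 1 CPM (the CPM unit of edgeR, read counts divided by the effective library size) was reached by 73 of them, with Ndufs5 and Atp5g2 below it. Symbols and present assignment differ for a few: Ndufa4 is now known as a subunit of complex IV, and Atp5sl as an assembly factor of complex I. RefSeq lists Atp5sl as Dmac2 and Atp5s as Dmac2l, so Atp5s no longer bears an ATP synthase symbol there. They were kept where their symbols put them. Subunits encoded in mitochondrial DNA were not analysed here, since the tables hold 0 rows for them.

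Both groups were F1-2.1 cells, a female ES cell line from a CAST/Ei x 129/Sv/Jae cross, with a Tet-on CTCF S224E transgene on a vector that also expresses EGFP, and both came from the single clone A2. The cells were grown on irradiated mouse embryonic fibroblast feeders for 6 days, with 1 μg/mL dox (+dox) or with no treatment (−dox). Polyadenylated RNA gave 2 libraries in each group, numbered replicates 1 and 2, and 1 count table was deposited for each replicate number. The study's methods call these biological replicates, but nothing says that they came from separate cultures, so the p-values measure only the spread between these libraries. No library of cells with dox but no transgene was analysed here, so that dox, which binds ribosomes of bacterial type including those of mitochondria, EGFP and CTCF S224E cannot be told apart in any difference below.

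The respiratory chain passes electrons from NADH and succinate to oxygen through complexes I to IV of the inner mitochondrial membrane, of which I, III and IV pump protons, and complex V, the ATP synthase, uses the returning protons to make ATP. All of complex II and most subunits of the other complexes are encoded in the nucleus, translated in the cytosol and imported, and they are assembled with the few subunits that mitochondria translate themselves. ES cells are known for immature mitochondria and a strong reliance on glycolysis, and they still express these genes.

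The libraries held 22899107 and 23136603 counted reads with dox and 30206085 and 24620964 without. Reads of the 75 genes made up 0.902% and 0.973% of the counts in +dox replicates 1 and 2, and 0.863% and 0.858% in −dox replicates 1 and 2. Replicates of 1 group differed by more than sampling noise, the chi-square statistic over its degrees of freedom being 19.2 with dox and 13.2 without for genes at 1 CPM or more, so neither group held a repeat deposit. Ctcf itself, endogenous and transgenic transcripts together, was counted at 327 and 329 CPM with dox and 295 and 304 CPM without, a log2 fold change of 0.13 (SE 0.09) that edgeR's quasi-likelihood test did not call (adjusted p = 0.475). Library +dox replicate 1 stood apart in 24 fibroblast marker genes, summed to 2628 CPM there against 1005 to 1130 CPM in the other 3 libraries. The difference was not confined to that library. In both tables at once 19 of the 24 were higher with dox, with median log2 fold changes of 1.58 and 0.30 in replicates 1 and 2. Both +dox libraries lay above both −dox libraries for 17 of the 24 (70.8%), against 26.1% of genes at 1 CPM or more. None of the 24 was at 0 in any library, and the 14 ES cell markers, also never at 0, summed to 7099 and 7922 CPM with dox and 6424 and 6777 CPM without.

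The subunit genes lay slightly higher with dox as a group, and hardly any of them passed the test singly. In the fit of all 4 libraries, 70 of the 75 genes (93.3%) had a log2 fold change above 0, against 49.8% of the 13911 genes at 1 CPM or more. Their median was 0.16 on the log2 scale, or 1.12-fold, with quartiles of 0.09 and 0.22, where the median of all genes at 1 CPM or more was -0.00, and correction for transcript length lowered the members' median to 0.05. At an adjusted p under 0.01, edgeR's quasi-likelihood test with Benjamini-Hochberg adjustment called 0 of the 75 higher with dox, against 0.0798% of all genes tested. It called 1 lower, Atp5l, against 0.519% of all genes. Unadjusted p-values were under 0.05 for 14 of the 75, near the share of all genes tested (17.8%) and below that of genes at 1 CPM or more (23.3%). Of these, 13 were higher with dox, against 8.48% of all genes tested and 10.9% of genes at 1 CPM or more. DESeq2, the tool of the study, called 2 members higher (Cox6a1 and Atp5o) and 1 lower (Atp5l), where it called 0.853% and 1.86% of the genes it tested. In bulk RNA, fewer cells of a type and less RNA per cell cannot be told apart.

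The direction was seen in the table of each replicate but was smaller in the first. Comparing +dox with −dox inside the table of replicate 1, 56 of the 75 genes were above 0 with a median log2 fold change of 0.07, and inside the table of replicate 2, 70 were above 0 with a median of 0.24. The corresponding medians of all genes at 1 CPM or more were -0.01 and 0.00. In both tables at once 55 of the 75 (73.3%) were above 0, against 34% of all genes at 1 CPM or more. Among better counted genes, with a mean of 10 CPM or more, it was 53 of 69 members (76.8%) against 36.6%. Each table sets 1 library against 1 and has no replicate check of its own.

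Both +dox libraries were above both −dox libraries for 45 of the 75 genes (60%), while 26.1% of genes at 1 CPM or more and 28.5% of those at 10 CPM or more were arranged in this way. Both +dox libraries lay below both −dox libraries for 2 members, Atp5l and Atp5s, against 27.7% of genes at 1 CPM or more, and for the other 28 members the groups overlapped. The size of the shift depended on both +dox libraries. Without +dox replicate 2 the median was 0.09 with 55 genes above 0. Without +dox replicate 1, the library high in fibroblast markers, it was 0.24 with 72 genes above 0, and Cox6a1 was called higher, in a fit where the lone +dox library is assumed to vary like the −dox libraries. In the table of replicate 2 the fibroblast markers were also higher with dox, with a median of 0.30, so leaving out +dox replicate 1 does not remove their difference. The part of the fibroblast markers in these values was not tested.

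**Figure D1:**
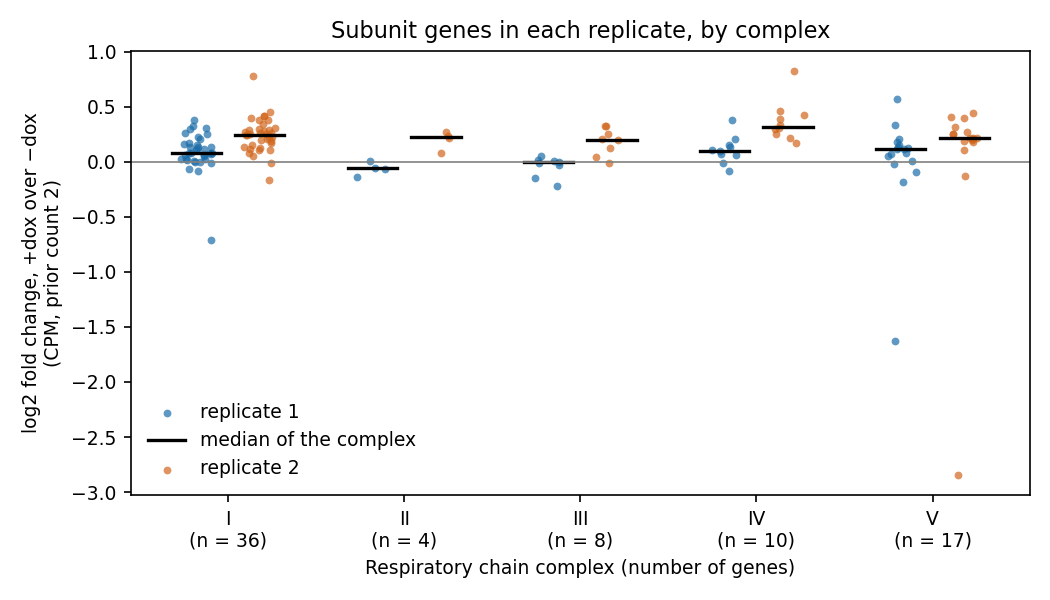
Log2 fold change of +dox over −dox (CPM with a prior count of 2, vertical axis) of each of the 75 subunit genes, by respiratory chain complex, with the table of replicate 1 in blue and that of replicate 2 in orange. Points are genes and black bars are medians of a complex: the replicate 2 medians run from 0.20 to 0.32 and the replicate 1 medians from -0.06 to 0.11, and the pair of points far below 0 in complex V is Atp5l.

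A large part of this shift went with transcript length. The members are short, with counted transcripts of 286 to 2905 nt and a median of 717 nt, where genes at 1 CPM or more had a median of 2864 nt, and short transcripts of all kinds tended to be higher with dox. Among the other genes at 1 CPM or more, the median log2 fold change was 0.11 for transcripts up to 500 nt, 0.13 for those over 500 and up to 1000 nt, 0.07 up to 2000 nt, 0.00 up to 4000 nt and -0.09 above 4000 nt. The members in the first 4 of these classes (16, 33, 19 and 5 genes) had medians of 0.16, 0.17, 0.11 and 0.10, each above that of the other genes in the class. Of other genes of up to 1000 nt, 67.1% were above 0 in the fit and 48.9% in both tables. The shares were 95.9% and 79.6% for the 49 members of that length at 1 CPM or more. Both +dox libraries lay above both −dox libraries in 37.7% of these other genes, against 65.3% of the 49 members. When each library was corrected for the trend of log2 CPM with transcript length, the members' median fell from 0.16 to 0.05 (1.03-fold), 53 of 75 remained above 0, and 24 of 75 (32%) did not overlap on the higher side, close to the 27.8% of all genes. Of the 13911 genes at 1 CPM or more, 7234 were above 0 after the correction, with a median of 0.01. After the correction edgeR's test called 0 members higher and 1 lower. Whether the length trend belongs to the cells or to the libraries was not tested.

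**Figure D2:**
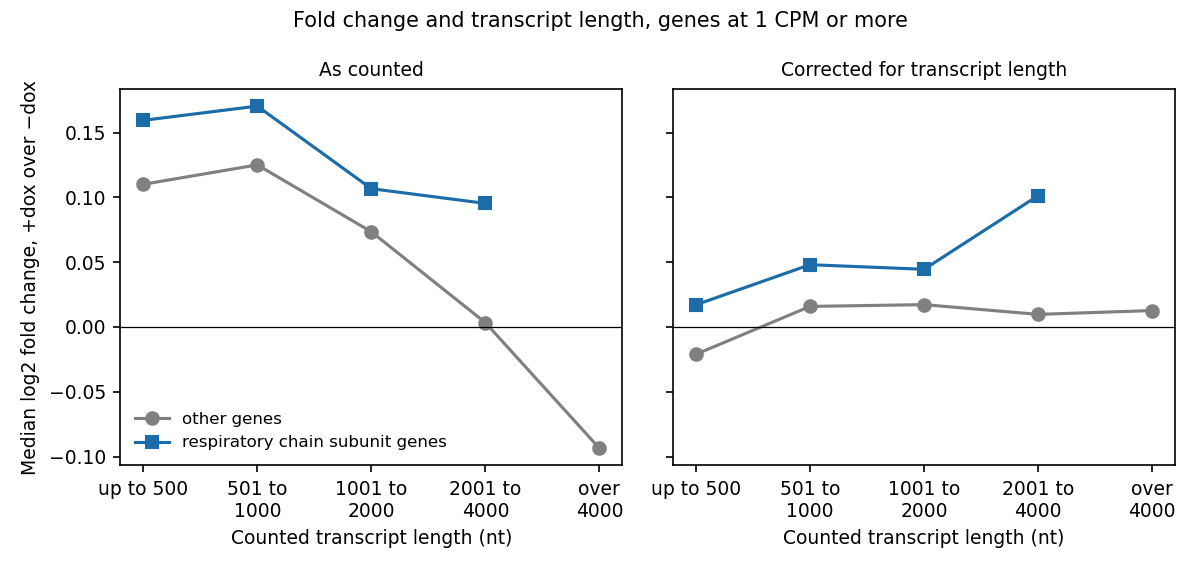
Median log2 fold change of +dox over −dox (vertical axis) in classes of counted transcript length in nt (horizontal axis), for subunit genes (blue squares) and all other genes at 1 CPM or more (grey circles), as counted on the left and after correction for length on the right. As counted, the other genes run from 0.11 in the shortest class to -0.09 in the longest, and the subunit genes lie above them in each class that holds any, before and after the correction.

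Complex I, the NADH dehydrogenase, is the largest of the 5, and the fitted values of nearly all its members were above 0 before the length correction. Of its 36 genes, 35 had a log2 fold change above 0 and 30 had one in both tables, with a median of 0.17. In 23 (63.9%) both +dox libraries lay above both −dox libraries, against 26.1% of genes at 1 CPM or more. After the length correction the median was 0.07, with 25 genes above 0. There 13 (36.1%) were without overlap on the higher side, beside 27.8% of genes at 1 CPM or more. Its summed level was 2772 and 2966 CPM in +dox replicates 1 and 2 and 2550 and 2515 CPM in −dox replicates 1 and 2, 1.13-fold higher with dox and with no overlap. With 2 libraries against 2, an exact permutation test cannot give a two-sided p under 0.333, here and for the sums of the other complexes. No member was called by edgeR or DESeq2. An unadjusted p under 0.05 by edgeR was reached by 8 of the 36 genes, all of them higher with dox. Of genes at 1 CPM or more, 23.3% reached it in either direction and 10.9% as higher with dox.

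Ndufb10, a membrane arm subunit at chr17:24859012-24861333 (mm9, minus strand), differed most. It was counted at 114 and 126 CPM with dox and at 91.9 and 92.2 CPM without. This is a log2 fold change of 0.38 (SE 0.10), with an adjusted p of 0.0657 by edgeR and 0.0271 by DESeq2. Both +dox libraries stood clear of both −dox libraries, which were nearly equal. Ndufa13, also known as GRIM-19 and a part of the membrane arm, followed with 74.7 and 74.1 CPM with dox against 60.6 and 55.7 CPM without, a log2 fold change of 0.36 (SE 0.11, edgeR adjusted p = 0.102). In the mm9 annotation, 30.2% of the Ndufa13 transcript is overlapped by Tssk6 on the opposite strand, and since use of the strand in counting is not stated, reads of either gene may be in this count.

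The catalytic core genes of complex I had smaller fold changes than this pair, which was named for its size. Their log2 fold changes ran from 0.04 for Ndufv2 to 0.29 for Ndufs7, around the complex median of 0.17. Ndufv1, which carries the NADH binding site, was at 122 and 127 CPM with dox and 120 and 102 CPM without (log2 fold change 0.16, SE 0.11). Ndufs1, the largest iron-sulfur subunit of the electron path, was at 106 and 101 CPM with dox and 101 and 92.5 CPM without, where the groups overlapped by a hair (log2 fold change 0.10, SE 0.10). For both the −dox libraries differed from each other by more than the +dox libraries did, and neither was called (edgeR adjusted p of 0.471 and 0.694). Per kb of transcript the −dox levels in complex I spread from 248 CPM for Ndufa7 and 239 CPM for Ndufa4 to 24.5 CPM for Ndufs4, with only Ndufb4 (3.96 CPM per kb) and Ndufs5 (0.31 CPM per kb) below. Ndufb8 was the single complex I gene with a fitted log2 fold change below 0, at -0.04 (SE 0.10).

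Complex II, succinate dehydrogenase, is shared with the citric acid cycle and differed little in sum. Its 4 genes all had a log2 fold change above 0 in the fit, with a median of 0.08, but only 1, Sdhb, was above 0 in both tables, and the medians of the tables were -0.06 and 0.22. The sum of the 4 was 487 and 508 CPM with dox and 507 and 454 CPM without (1.04-fold), and the groups overlapped. Sdha, the flavoprotein that oxidizes succinate, was at 226 and 231 CPM with dox and 236 and 219 CPM without, a log2 fold change of 0.01 (SE 0.09). Sdhb, the iron-sulfur subunit, was at 112 CPM in both +dox libraries and at 112 and 96.8 CPM without dox (log2 fold change 0.11, SE 0.10). Sdhc, 1 of the 2 membrane anchors, was at 69.3 and 78.3 CPM with dox and 72.1 and 65.1 CPM without (log2 fold change 0.11, SE 0.11). For Sdha and Sdhc the groups overlapped, and no member of the complex had an unadjusted p under 0.05.

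Complex III, the cytochrome bc1 complex, had 6 of its 8 genes above 0 in the fit and 3 in both tables, with a median of 0.08 (-0.03 after the length correction) and table medians of -0.01 and 0.20. Its sum was 850 and 912 CPM with dox and 863 and 813 CPM without (1.05-fold), again with overlap. The fitted values of the core proteins were small, with opposite signs. Uqcrc1 was at 329 and 331 CPM with dox and 331 and 287 CPM without (log2 fold change 0.09, SE 0.09), while Uqcrc2 was at 132 and 140 CPM with dox and 135 and 141 CPM without (-0.02, SE 0.09). Uqcrfs1, the Rieske iron-sulfur protein that hands electrons to cytochrome c1, was at 92.3 and 97.4 CPM with dox and 102 and 94.3 CPM without (-0.05, SE 0.10). In each of the 3 the groups overlapped. The small subunits Uqcr11 and Uqcrh had the largest values of the complex, 0.18 (SE 0.14) and 0.17 (SE 0.12). Uqcr11 was at 40.2 and 39.8 CPM with dox and 38.9 and 31.8 CPM without, and Uqcrh at 80.4 and 99.7 CPM with dox and 80.4 and 79.5 CPM without, so that each of these values came mainly from replicate 2. No member of the complex had an unadjusted p under 0.05.

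Complex IV, cytochrome c oxidase, had a median of 0.20, and of 0.08 after the length correction, beside 0.07 for complexes I and V. All 10 genes were above 0 in the fit and 8 in both tables, with table medians of 0.10 and 0.32. Both +dox libraries lay above both −dox libraries in 6 (60%), or in 4 (40%) after the length correction. The shares of genes at 1 CPM or more were 26.1% and 27.8%. Its sum was 1190 and 1361 CPM with dox and 1080 and 1100 CPM without (1.17-fold), with no overlap. Cox6a1, at chr5:115795663-115798964 (mm9, minus strand), is the broadly expressed form of a small accessory subunit. It was counted at 264 and 298 CPM with dox and at 203 and 216 CPM without, so both +dox libraries were well above both −dox libraries. The log2 fold change was 0.42 (SE 0.10, 1.34-fold), with an adjusted p of 0.0362 by edgeR, short of 0.01, and 0.00592 by DESeq2. After the length correction it was 0.29 (edgeR adjusted p = 0.0776).

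Cox4i1 and Cox5a are the first nuclear subunits to join the catalytic core. Cox4i1 was at 198 and 202 CPM with dox and 184 and 174 CPM without, with no overlap (log2 fold change 0.16, SE 0.09, edgeR adjusted p = 0.388). Cox5a was at 146 and 187 CPM with dox and 155 and 152 CPM without, the lowest and the highest value both being +dox libraries (0.12, SE 0.11). Cox5b, a zinc-binding subunit, was at 28.5 and 23.8 CPM with dox and 27.1 and 17.7 CPM without, with overlap (0.22, SE 0.20). Cox7c had the largest fitted value of the complex at 0.49, on few reads: 6.00 and 6.13 CPM with dox and 5.17 and 3.43 CPM without (SE 0.26, edgeR adjusted p = 0.353). None of these 4 was called by either tool.

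Complex V had the largest summed level of the 5 and held the single member that edgeR called. Of its 17 genes, 15 were above 0 in the fit and 13 in both tables, with a median of 0.16 and table medians of 0.11 and 0.22. On the higher side 12 (70.6%) did not overlap, or 7 (41.2%) after the length correction. The shares of genes at 1 CPM or more were 26.1% and 27.8%. Its sum was 3881 and 4108 CPM with dox, against 3540 and 3539 CPM without (1.13-fold), the −dox libraries being almost identical. The genes of the catalytic head were higher in both +dox libraries than in either −dox library, but did not pass the test. Atp5b, the beta subunit and the most highly counted member per kb of transcript (745 CPM per kb without dox), was at 1513 and 1623 CPM with dox and 1377 and 1406 CPM without (log2 fold change 0.17, SE 0.08, edgeR adjusted p = 0.274). Atp5a1, the alpha subunit, was at 972 and 978 CPM with dox and 894 and 864 CPM without (0.15, SE 0.08, edgeR adjusted p = 0.360). Atp5c1, the gamma subunit that turns within the head, was at 189 and 203 CPM with dox and 179 and 177 CPM without (0.14, SE 0.09, edgeR adjusted p = 0.479).

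Atp5o, at chr16:91925468-91931875 (mm9, minus strand), encodes the oligomycin sensitivity protein that joins the head to the peripheral stalk. It was at 227 and 236 CPM with dox and 181 and 173 CPM without, with a wide gap between the groups. The log2 fold change was 0.39 (SE 0.09, 1.31-fold), with an adjusted p of 0.0394 by edgeR and 0.00640 by DESeq2, and 0.27 after the length correction (edgeR adjusted p = 0.0887). A long noncoding gene on the opposite strand, D430001F17Rik, overlaps 5.35% of its transcript.

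Atp5l, at chr9:44721331-44728825 (mm9, minus strand), encodes the small membrane subunit g, and it was the only member that either tool called lower. It had 26 and 13 counts with dox and 114 and 115 without, or 1.16 and 0.57 CPM against 3.73 and 4.58 CPM. All 4 counts are low for a complex V gene, and both −dox libraries stood well above both +dox libraries. The log2 fold change was -2.26 (SE 0.36), with an adjusted p of 0.00636 by edgeR and 0.00116 by DESeq2. The ratio of summed counts, scaled by the effective library sizes, was 0.209, with an exact 95% interval of 0.145 to 0.294 that covers counting error only. The call of edgeR was lost with deviances adjusted for small counts (adjusted p = 0.10), with its stricter filter on low counts (0.0450) and without −dox replicate 1 or 2 (0.550 and 0.670, fits in which edgeR called 0 of all genes and 1753 and 1450 had an unadjusted p under 0.05), and over the other alternatives the adjusted p ran from 9.69e-09 to 0.00950.

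**Figure D3:**
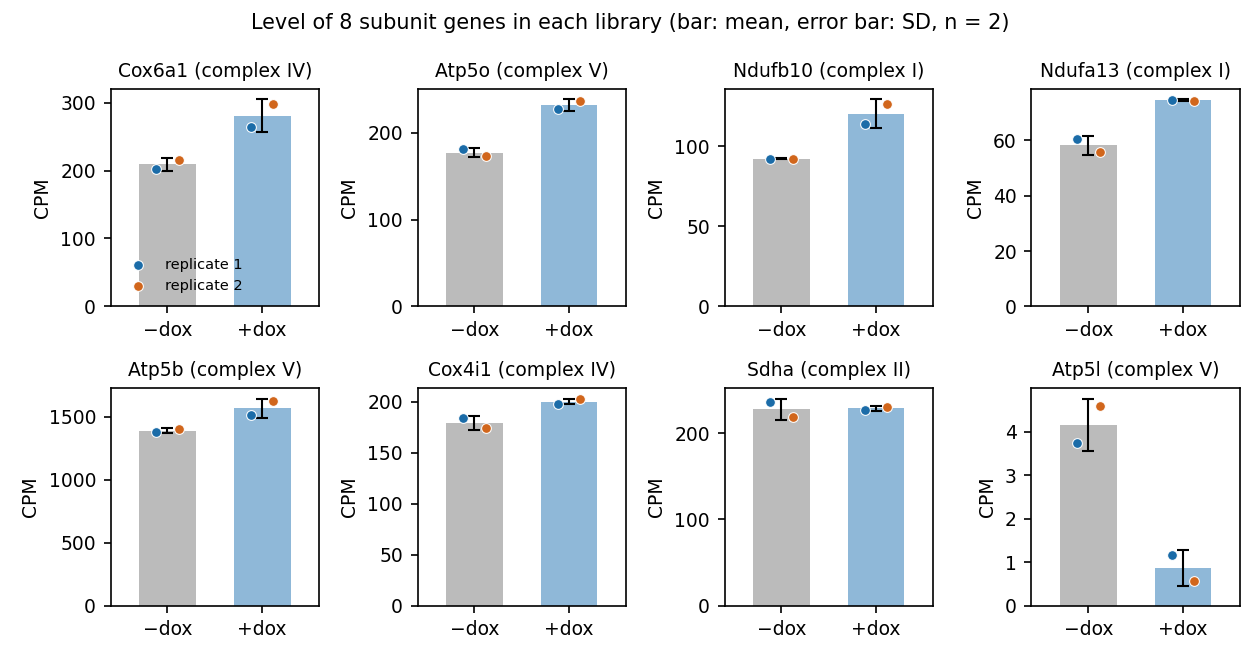
Level in CPM (vertical axes, each from 0) of 8 subunit genes in the 4 libraries, with points for replicate 1 (blue) and replicate 2 (orange), bars for the mean of 2 libraries and error bars for the SD. In Cox6a1, Atp5o, Ndufb10 and Ndufa13 both +dox points lie above both −dox points, in Sdha the −dox points enclose them, and in Atp5l the +dox points are at 0.57 and 1.16 CPM below −dox points at 3.73 and 4.58 CPM.

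Several of the members with the lowest counts share most of their transcript sequence with other loci. Per the study's methods, unique reads on exons were tallied from paired-end reads of 50 nt. Many of these genes have processed pseudogenes, which are copies of the spliced transcript at other places in the genome. Each 50-base window (the read length) of the transcript model nearest in length to the counted one was therefore searched for in mm9 on both strands. In 35 of the 75 genes no window was found elsewhere and in 40 some were, with a median of 0.74%. In 7 genes at least 50% of windows had an exact copy elsewhere: Atp5g2 (100%), Atp5l (89.4%), Ndufs5 (80.0%), Atp5g1 (73.8%), Cox5b (62.7%), Uqcrb (61.5%) and Atp5h (58.4%). The counts of these genes are uncertain, as a read from the shared windows could not be placed on its own. A mate in other sequence could place the pair, and mates were not considered in this search.

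For Atp5l, windows were found at 16 other loci, and 49 windows, all in the first 98 nt of the 511-nt model, were found nowhere else. Without dox it stood at 8.18 CPM per kb, while Atp5k (subunit e) and Atp5j (a stalk subunit) stood at 82.5 and 65.3 CPM per kb. Where on the Atp5l transcript its counts fell is not known, since a mate may place a read from a shared window. The fall of Atp5l is a fall of the reads that were counted for it. Whether reads that could not be placed moved in the same way was not tested. Atp5g2, 1 of 3 genes for the ring-forming subunit c, had 14 and 9 counts with dox and 12 and 7 without, where Atp5g3 for the same protein stood at 266 CPM per kb. Ndufs5 had 2 and 6 counts with dox and 6 and 3 without, too few to show a difference of any moderate size. Cox7c and Ndufb4, the other low members of complexes IV and I, had 48.2% and 39.4% of their windows elsewhere. By contrast the share was 12.3% for Cox6a1 and 21.3% for Atp5o. Across the 75 genes, which share libraries and annotation, Spearman's rho between the shared percentage and the level per kb was -0.26, given as a description.

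**Figure D4:**
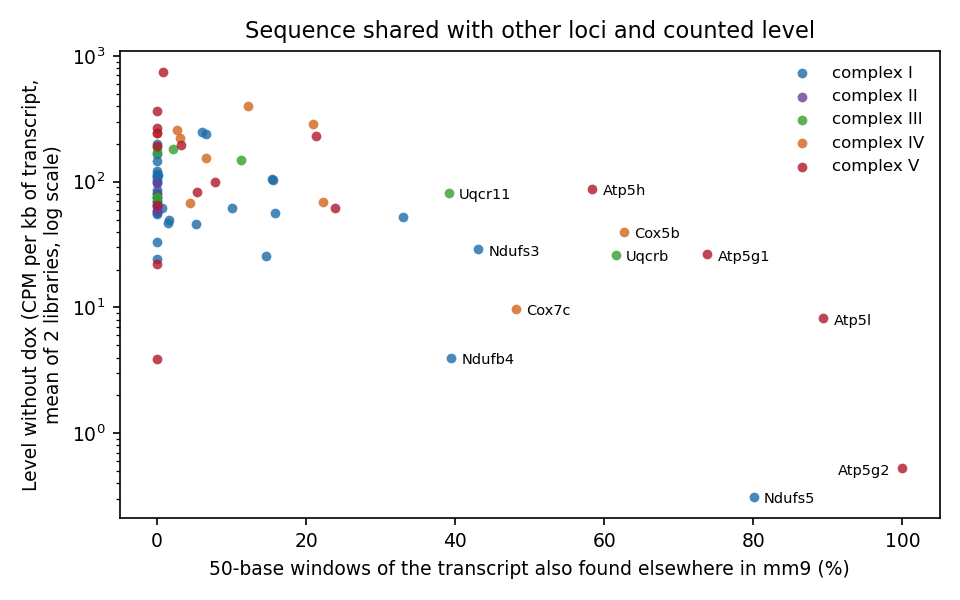
Level without dox (CPM per kb of transcript, mean of 2 libraries, logarithmic vertical axis) of each subunit gene against the percentage of its 50-base transcript windows that also occur elsewhere in mm9 (horizontal axis), coloured by complex. Atp5l (89.4%), Ndufs5 (80.0%) and Atp5g2 (100%) lie at the lower right with less than 10 CPM per kb, while most members sit near 0% and above 20 CPM per kb.

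The members are scattered over 19 chromosomes, 3 of them on the X (Cox7b, Ndufa1 and Ndufb11). Few neighbours lay within 200 kb of each other, among them Atp5d, Ndufs7 and Uqcr11 in a row on chromosome 10 (gaps of 103.6 and 146.2 kb), and Ndufs8 and Ndufv1 on chromosome 19 (94.7 kb). The log2 fold changes in the row on chromosome 10 were 0.24, 0.29 and 0.18, and neighbours differed by less than the SE of Uqcr11 (0.14). In the mm9 annotation exons of 14 members overlap those of another gene, mostly on the opposite strand, which makes their counts uncertain, as with Ndufa13. The larger overlaps were 39.0% of Ndufb6, 38.7% of Cox5a, 31.9% of Ndufb2 (same strand, with Adck2), 30.2% of Ndufa13, 21.0% of Atp5f1 and 20.6% of Atp5j, which meets Gabpa, itself the gene of an ETS factor known to regulate this gene group.

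The promoters of the members were also compared with those of all genes. RefSeq promoters (GRCm38.p6, 250 bases before to 50 after the start of transcription) were found for 64 of the 75 genes. The promoters were searched on both strands for exact short motifs of factors known to bind at many housekeeping promoters, and of CTCF. The NRF1 motif GCGCATGCG was found in 12.5% of the member genes (8 of 64) and in 1.95% of 27025 genes, and the YY1 motif AAGATGGCG in 12.5% (8 of 64) and 1.64%. The ETS motif CCGGAAGT was in 7.81% and 4.31%, the SP1 motif GGGGCGGGG in 17.2% and 12.9%, and the NF-Y motif CCAAT in 43.8% and 41.1%. The CTCF motif AGGGGGCGC was in 1 member gene, Ndufc1 (1.56%), and in 1.43% of all genes. These are matches of letters, not measured binding. The shares of all genes include genes that were not expressed here, and a comparison with expressed genes alone was not made.

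The promoters below are shown because Cox6a1 had the larger of the increases that DESeq2 called and Ndufa11, Uqcr11 and Ndufs7 are single examples of the NRF1, ETS and YY1 matches. Capitals mark the matches to NRF1, YY1 and ETS, and the NRF1 letters can match both strands with an overlap, which gives a run of 10 capitals.
Cox6a1 promoter, chr5:115348909-115349208, minus strand: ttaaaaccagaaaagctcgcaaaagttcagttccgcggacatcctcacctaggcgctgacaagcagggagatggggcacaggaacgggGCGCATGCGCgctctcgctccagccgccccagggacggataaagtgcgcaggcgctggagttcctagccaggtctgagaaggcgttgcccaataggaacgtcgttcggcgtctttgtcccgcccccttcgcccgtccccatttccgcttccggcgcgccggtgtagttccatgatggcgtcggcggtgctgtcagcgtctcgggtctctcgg
Ndufa11 promoter, chr17:56717512-56717811, plus strand: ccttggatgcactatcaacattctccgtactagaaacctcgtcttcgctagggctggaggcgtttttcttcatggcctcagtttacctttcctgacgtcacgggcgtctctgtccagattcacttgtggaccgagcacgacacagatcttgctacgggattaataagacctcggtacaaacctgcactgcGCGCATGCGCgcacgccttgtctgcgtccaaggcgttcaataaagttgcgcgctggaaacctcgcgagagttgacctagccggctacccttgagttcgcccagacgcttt
Uqcr11 promoter, chr10:80406772-80407071, minus strand: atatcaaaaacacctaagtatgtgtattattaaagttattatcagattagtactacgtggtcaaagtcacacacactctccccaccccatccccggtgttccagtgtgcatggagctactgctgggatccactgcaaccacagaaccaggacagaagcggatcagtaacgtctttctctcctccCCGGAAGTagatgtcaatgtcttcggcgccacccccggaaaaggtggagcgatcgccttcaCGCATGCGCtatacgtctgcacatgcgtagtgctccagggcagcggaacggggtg
Ndufs7 promoter, chr10:80249199-80249498, plus strand: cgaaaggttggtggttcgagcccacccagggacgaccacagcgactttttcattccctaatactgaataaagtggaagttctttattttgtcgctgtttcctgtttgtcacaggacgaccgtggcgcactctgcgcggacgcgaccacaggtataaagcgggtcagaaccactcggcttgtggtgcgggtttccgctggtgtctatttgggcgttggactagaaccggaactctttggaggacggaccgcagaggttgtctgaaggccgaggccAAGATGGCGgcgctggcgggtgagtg

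In Cox6a1 and Ndufa11 the NRF1 letters are read on both strands at once and lie upstream of the start, and in Uqcr11 an ETS match stands upstream of an NRF1 match that reaches the start itself. In Ndufs7 the YY1 letters lie just after the start. Ndufa11, a membrane arm subunit, had a log2 fold change of 0.28 (SE 0.10), and Ndufs7, an iron-sulfur subunit near the quinone site, 0.29 (SE 0.10). The median log2 fold change of the 8 member genes with the NRF1 motif was 0.23 and that of the 56 without it 0.16. The 8 ran from -2.26 for Atp5l, the member called lower, to 0.58 for Atp5g2, which lay under 1 CPM. For YY1 the medians were 0.17 and 0.16. These medians are not corrected for transcript length, and their differences were not tested. The genes of the factors themselves were not called: Nrf1 was at 171 and 161 CPM with dox and 149 and 144 CPM without (log2 fold change 0.18, SE 0.09, edgeR adjusted p = 0.345), and Yy1 at 181 and 162 CPM with dox and 196 CPM in both −dox libraries (-0.19, SE 0.09, edgeR adjusted p = 0.317).

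The genes for proteins that build the complexes had smaller medians than the subunits. Of 13 assembly factors of complex I, 9 were above 0 with a median log2 fold change of 0.07, and of 33 assembly factors of complexes II to V, 22 were above 0 with a median of 0.11. In these lists edgeR and DESeq2 called 0 genes, and 1 and 3 had an unadjusted p under 0.05, all higher with dox. Of genes at 1 CPM or more, 10.9% were higher at this level. Ecsit, of the complex I assembly machinery, was at 98.0 and 96.8 CPM with dox and 86.9 and 76.1 CPM without (log2 fold change 0.26, SE 0.11, edgeR adjusted p = 0.218), and Ndufaf4 followed at 0.20 (SE 0.12). Sco2, a copper chaperone of cytochrome c oxidase, was at 41.0 and 40.9 CPM with dox and 31.7 and 28.3 CPM without (0.45, SE 0.13, edgeR adjusted p = 0.0908), with both groups tight and apart. Sdhaf4, of complex II assembly, had the lowest value at -0.46 (SE 0.22, edgeR adjusted p = 0.315). The difference between assembly factors and subunits was not tested, and assembly factors have longer transcripts, with medians of 1662 and 1322 nt.

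Subunits and electron carriers outside the symbol rule included tissue-specific or inducible forms, and 1 of 12 tested was called, as lower. Among all genes tested, edgeR called 0.519% lower and DESeq2 1.86%. Of the 12, 5 were above 0 and 6 were below 0 in both tables, with a median log2 fold change of -0.10. Ndufa4l2, the paralogue of Ndufa4 known to be induced in low oxygen, fell from 46.1 and 44.8 CPM without dox to 9.82 and 6.70 CPM with dox. The gap between the groups was wide, though the +dox libraries differed from each other. The log2 fold change of Ndufa4l2 was -2.46 (SE 0.18), with an adjusted p of 3.53e-05 by edgeR and 1.31e-29 by DESeq2. It was -2.55 after the length correction. The call was lost with adjusted deviances (adjusted p = 0.0327) and in the same fits without −dox replicate 1 or 2 (0.550 and 0.670). Ndufa4 itself had a log2 fold change of 0.26 (SE 0.10, edgeR adjusted p = 0.192), with both +dox libraries above both −dox libraries. Cox4i2, the counterpart of Cox4i1 that is likewise known as a low-oxygen form and was looked at after its values had been seen, had 5 counts with dox and 63 without over 2 libraries each. The ratio scaled by the effective library sizes was 0.0974 (95% interval 0.0306 to 0.239, counting error only), with an adjusted p of 0.0177 by edgeR, which misses 0.01. Among carriers, Cyc1 of complex III had a log2 fold change of 0.12 (SE 0.09) and Cycs, cytochrome c, -0.25 (SE 0.29), and neither was called. Usmg5, an ATP synthase membrane subunit counted at 0.98 to 2.15 CPM, had 0.53 (SE 0.41).

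The lists of other mitochondrial enzymes, carriers, chaperones and regulators had medians closer to 0, and also longer transcripts (medians of 2261, 1534, 2318 and 3092 nt in the order below). Their difference from the subunit genes was not tested. Of 13 citric acid cycle enzymes 8 were above 0 with a median of 0.07, led by Idh3g at 0.28 (SE 0.08, edgeR adjusted p = 0.102), with Suclg2 lowest at -0.27 (SE 0.12, edgeR adjusted p = 0.266). Of 8 carriers and porins 5 were above 0 with a median of 0.04 (-0.02 after the length correction), from Ucp2 at -0.24 (SE 0.10) to Slc25a4, an ADP/ATP exchanger, at 0.24 (SE 0.09). Of 15 chaperones and proteases 11 were above 0 with a median of 0.06, with Phb and Clpp highest at 0.32 (SE 0.11) and 0.30 (SE 0.10). Of 18 regulators of mitochondrial biogenesis 9 were above 0 with a median of 0.02 (-0.03 when scaled to total counts), among them Polrmt, the mitochondrial RNA polymerase, at 0.23 (SE 0.10) and Peo1, the mitochondrial DNA helicase, at 0.20 (SE 0.11). Scaled to total counts, the median of all genes at 1 CPM or more was -0.04. In these lists edgeR and DESeq2 called 0 genes, and 3, 3, 2 and 1 genes had an unadjusted p under 0.05, of which 2, 2, 2 and 1 were higher with dox. The shares of genes at 1 CPM or more were 23.3% in either direction and 10.9% higher with dox.

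The groups most like the subunit genes were the ribosomal proteins. Of 77 mitochondrial ribosomal protein genes, 73 were above 0 with a median of 0.18, table medians of 0.09 and 0.26, and no overlap on the higher side in 50 (64.9%). The highest were Mrpl21 at 0.51 (SE 0.14, edgeR adjusted p = 0.0753) and Mrps18b at 0.41 (SE 0.10, edgeR adjusted p = 0.0543). Of 89 cytosolic ribosomal protein genes, 80 were above 0 with a median of 0.26, table medians of 0.21 and 0.34, and no overlap on the higher side in 54 (60.7%). This share was 26.1% among genes at 1 CPM or more and 37.7% among other genes of up to 1000 nt. edgeR called 0 genes of either list. Its unadjusted p was under 0.05 for 17 and 36 genes, all higher with dox, where 10.9% of genes at 1 CPM or more were higher at this level. DESeq2 called 4 cytosolic genes higher, Rpl10l, Rpl13a, Rpl32 and Rpl37rt, against 0.853% of the genes it tested. The largest cytosolic values, Rpl11 at 1.76 (SE 0.44) and Rps16 at 0.79 (SE 0.23), were not called by either tool. Rpl11 was at 23.6 CPM in +dox replicate 1, the library high in fibroblast markers, and at 6.26 CPM in +dox replicate 2, against 4.09 and 4.74 CPM without dox. Both lists are also short, with median transcripts of 1044 and 696 nt, and many cytosolic ribosomal genes have processed pseudogenes as well.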

How the data were processed

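RNA-seq counts of 2 +dox and 2 −dox libraries were analysed, and the ChIP-seq and Hi-C data of the series were not used here. Per the study's methods, the authors used cutadapt for trimming of paired-end reads and TopHat2 for alignment to mm9. They discarded PCR duplicates, tallied unique reads on exons with HOMER, and deposited these counts without normalization. Versions and use of strand are not given in the sources used here. The tables of replicates 1 and 2 were joined by symbol (547 genes, 2 of them members, have different transcripts in the tables). All genes counted at least once in any library entered edgeR 4.0.16 (R 4.3.3), with TMM, its quasi-likelihood test at default settings and no replicate block, and Benjamini-Hochberg adjustment over 20044 genes at a threshold of 0.01, as in the study. DESeq2 1.42.0 was the alternative. SEs come from the test statistic, and fold changes within 1 table use a prior count of 2. The length correction used loess offsets (span 0.5). The precision of each value rests on 22899107 to 30206085 counts per library, and intervals cover counting error only. Fits were tested on simulated data.

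Members, lists and motifs were chosen with earlier results of these data known. Genes named are members called by edgeR or DESeq2, the 2 largest fold changes per complex at 1 CPM or more, core subunits, members under 1 CPM, and, in each mitochondrial or ribosomal list, the called genes and the 2 largest changes. The values of 1 member are not reported here. Genes named for sequence features, neighbours or levels are further examples. Alternatives were other tests, adjusted deviances, a replicate block, other scaling, edgeR's filterByExpr, a threshold of 0.05, a prior count of 0.5, restriction to identical transcripts, length correction and leaving out each library. The shares of genes without overlap were added after seeing the data. Uniqueness was scored with GENCODE vM1 models on NCBIM37 (62 of 75 within 10% of the counted length), and promoters come from RefSeq (GRCm38.p6).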

Additional observations from a re-analysis of the deposited data

How the results depend on the processing

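Members called higher with dox (0 by edgeR) numbered 2 with DESeq2, 2 with a replicate block and 2 at a threshold of 0.05, and 0 to 1 with each library left out, the 1 being Cox6a1 without +dox replicate 1. Members called lower (1, Atp5l) numbered 0 with adjusted deviances, 0 with filterByExpr and 0 to 1 with each library left out, being 0 without −dox replicate 1 or 2. Genes of the other mitochondrial and ribosomal lists called higher (0 by edgeR) numbered 4 with DESeq2, 3 with the likelihood ratio test, 13 with the replicate block, 1 with DESeq2 size factors, 1 with the same transcript in both tables, 5 at a threshold of 0.05, and 0 to 13 with each library left out (13 without +dox replicate 1, 10 without +dox replicate 2). Those called lower (1) numbered 2 with the likelihood ratio test, 0 with adjusted deviances, 2 with the replicate block, 2 at 0.05, and 0 to 6 with each library left out. With the length correction the replicate 2 median fell to 0.0775 over all members (0.24 without it), 0.0540 in complex I (0.25), 0.0127 in complex III (0.20), 0.116 in complex IV (0.32) and 0.102 in complex V (0.22), the fitted median of complex V to 0.0696 (0.16), and members without overlap on the higher side from 45 to 24. The replicate 1 median over all members fell to 0.0263 (0.07 without the correction). The causes were not tested. Left-out libraries gave medians over all members of 0.09 to 0.24. Scaling to total counts gave a median of 0.12, with 66 members above 0 and 30 without overlap on the higher side. Under this scaling the median of all genes at 1 CPM or more also fell, to -0.04. Their share without overlap under this scaling is not given. Over all genes, edgeR called 120, DESeq2 375, the likelihood ratio test 457, adjusted deviances 0 (with 3254 at an unadjusted p under 0.05), filterByExpr 11 and the paired fit 786, and leaving out a library gave 0 to 992. Replicates shared only a number in the labels, and deviations of same-numbered libraries from their group means correlated at 0.196 over 13911 genes and at 0.481 over the 73 members at 1 CPM or more. The fitted medians of all members and of complexes I, IV and V were above 0 under every alternative run, while that of complex II was -0.02 without −dox replicate 2 and that of complex III -0.03 with the length correction. Over single genes and other lists, 794 alternative values kept their side of the threshold or moved within the spread between replicates, 51 gained a call, 7 lost one (Atp5l and Ndufa4l2) and 14 list medians moved further.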
